A study of Mus musculus with 4 samples.

Results

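Inflammasomes are cytosolic protein platforms that macrophages assemble when a sensor detects microbial products or cell damage. Sensors such as NLRP3, NLRC4, NLRP1B and AIM2 recruit caspase-1, many of them through the adaptor ASC (gene *Pycard*), and caspase-1 cleaves the precursors of IL-1β and IL-18 and the pore-forming protein gasdermin D. Caspase-11 (gene *Casp4* in the mouse) senses cytosolic LPS and cleaves gasdermin D as well. Opening of the gasdermin D pore releases the mature cytokines and leads to pyroptosis, an inflammatory form of cell death. A first signal such as IL-1α or LPS raises the expression of the IL-1β precursor and of some sensors, and a second signal then starts assembly.

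The transcripts described here are 10 of the 55356 genes of the deposited table, chosen by gene name: the cytokine substrates *Il1b* and *Il18*, the sensors *Nlrp3*, *Nlrc4*, *Nlrp1b* and *Aim2*, the adaptor *Pycard*, the caspases *Casp1* and *Casp4*, and *Gsdmd*. They were measured by RNA sequencing in 4 libraries of immortalized mouse macrophages (iMK2-KO). All of these cells descend from bone marrow-derived macrophages of mice that lack MK2, a kinase activated by p38 MAPK. They were transduced with a retrovirus carrying *GFP* alone (iMK2-KO+GFP, genotype label *MK2* knockout) or *MK2* with *GFP* (iMK2-KO+MK2, genotype label wt) and sorted for GFP. Each of the 2 lines was left untreated (UT) or received recombinant murine IL-1α (5 ng/mL) for 1 h. The question is how MK2 bears on the basal and the IL-1α-induced transcripts of the IL-1β pathway. There was 1 library for each condition and 1 line for each construct. In these libraries, differences between lines that have nothing to do with MK2 therefore cannot be told apart from its effect. No difference could be checked against replicate libraries or given a p-value. The study's replicated quantitative PCR of *Il1b* in these lines is not part of the values here.

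Values are normalized counts, and they sum to between 24891906 and 25733071 per library. Each comparison is a log2 ratio of 2 libraries after adding 1, followed by its 95% counting interval, which takes 1 normalized count as 1 read and covers counting error only. Genes are called higher or lower, or said to have risen or fallen, where they differed at least 2-fold, and the 12483 genes whose mean over the 4 libraries was 10 or more serve as the background. Of the 10 members, 9 reached this mean. *Gsdmd* did so only through iMK2-KO+MK2 cells, and *Pycard* did not reach it. *Mapkapk2*, which encodes MK2, was counted at 561 without and 1585 with IL-1α in iMK2-KO+GFP cells against 38357 and 38141 in iMK2-KO+MK2 cells, the direction that the labels give. All 10 macrophage markers checked (*Adgre1*, *Csf1r*, *Cd68*, *Itgam*, *Lyz2*, *Mertk*, *Fcgr1*, *Cd14*, *Spi1* and *Ptprc*) were present in every library, with summed levels of 123787 to 138754, mostly from *Lyz2*, *Csf1r* and *Cd68*, while summed neutrophil markers were 5 to 8, those of T and B cells 1 to 14, and those of fibroblasts 0. Some macrophage markers differed between the lines: *Mertk* was lower in iMK2-KO+GFP cells (421 and 364 against 1093 and 1168), *Fcgr1* (1226 and 1194 against 2108 and 2216) and *Adgre1* (3978 and 4140 against 6832 and 6330) were below by less than 2-fold, and *Cd14*, a co-receptor for LPS, was at 3652 and 8072 against 1962 and 2250, past 2-fold after IL-1α. Their part in the differences between the lines that follow was not tested.

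The promoters of the members that rose at least 2-fold after IL-1α are shown here, since the values that follow turn on these genes. Each line gives up to 250 bases before the annotated transcription start, 5′ to 3′ on the coding strand, from RefSeq on GRCm38.p6, with matches to searched motifs in capitals. Bases from the first annotated GENCODE M21 exon on were left out. The *Casp4* line therefore ends at 5308827, short of its RefSeq start at 5308849, and the upstream *Nlrp3* line is 1 base short. Motif positions are counted from the RefSeq start.

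*Il1b* (chr2:129371140-129371389, minus strand): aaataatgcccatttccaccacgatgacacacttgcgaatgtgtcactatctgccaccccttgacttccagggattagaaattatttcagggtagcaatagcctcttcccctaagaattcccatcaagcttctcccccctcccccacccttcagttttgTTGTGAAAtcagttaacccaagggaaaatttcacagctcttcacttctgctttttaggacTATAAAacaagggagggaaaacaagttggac

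*Nlrp3*, upstream start (chr11:59541319-59541567, plus strand): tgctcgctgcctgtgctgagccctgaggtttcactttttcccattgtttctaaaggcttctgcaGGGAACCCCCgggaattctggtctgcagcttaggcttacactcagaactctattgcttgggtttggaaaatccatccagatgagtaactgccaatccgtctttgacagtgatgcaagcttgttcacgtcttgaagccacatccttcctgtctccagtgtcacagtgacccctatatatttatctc

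*Nlrp3*, downstream start (chr11:59542436-59542685, plus strand): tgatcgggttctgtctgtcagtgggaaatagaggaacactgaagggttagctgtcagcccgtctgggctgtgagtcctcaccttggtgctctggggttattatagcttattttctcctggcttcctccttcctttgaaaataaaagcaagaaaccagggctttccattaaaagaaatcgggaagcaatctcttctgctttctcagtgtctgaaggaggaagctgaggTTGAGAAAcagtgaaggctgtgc

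*Casp4* (chr9:5308599-5308827, plus strand): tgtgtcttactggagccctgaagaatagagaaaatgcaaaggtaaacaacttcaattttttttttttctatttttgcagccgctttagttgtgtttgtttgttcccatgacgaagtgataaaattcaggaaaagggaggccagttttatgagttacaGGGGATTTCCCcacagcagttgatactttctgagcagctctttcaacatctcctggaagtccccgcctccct

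4 motifs were searched on both strands: the NF-κB consensus, the AP-1 site TGANTCA, the TATA box TATAAA and the C/EBP-type site TTGNGNAA. In *Il1b*, TATAAA stood at -31 to -26 and TTGTGAAA at -91 to -84 from the start. In *Nlrp3*, GGGAACCCCC at -186 to -177 of the upstream start matched the NF-κB consensus on the opposite strand, and TTGAGAAA stood at -23 to -16 of the downstream start. In *Casp4*, GGGGATTTCC and GGGATTTCCC, which overlap by all but their outer bases, lay within -93 to -83 and both matched the NF-κB consensus. Among 32817 promoter windows of mouse genes, 3.9% held the NF-κB consensus, 12.4% TATAAA, 11.7% TTGNGNAA and 6.75% TGANTCA. RefSeq windows were found for 9 of the 10 members (12 windows), and *Gsdmd* had none. Apart from the window of another *Casp4* start, which overlaps the one shown and holds the same matches, no further window, that of *Il1b* included, held the NF-κB consensus, and none of the 12 held TGANTCA. These matches describe letters in the windows and show no binding. Sites outside the windows, or with other letters, were not searched for. The study's discussion refers to an NF-κB site in the *Il1b* promoter region.

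*Il1b*, the precursor of the cytokine that inflammasomes release, had normalized counts of 47 in UT and 2007 in IL-1α-treated iMK2-KO+GFP cells, and of 15 and 52 in iMK2-KO+MK2 cells. The IL-1α-treated iMK2-KO+GFP library stood far above the others, and its level was 133.8 times the lowest. The level of UT iMK2-KO+GFP cells (counting interval 34.5 to 62.5) and that of iMK2-KO+MK2 cells after IL-1α did not differ beyond counting error. *Il1b* rose in both lines after IL-1α, by a log2 ratio of 5.39 (5.00 to 5.87), or 41.8-fold, in iMK2-KO+GFP cells and by 1.73 (0.94 to 2.73), or 3.31-fold, in iMK2-KO+MK2 cells. The difference between the responses was 3.66 (2.75 to 4.56) on the log2 scale. In the iMK2-KO+GFP line, only 5 of the 12483 background genes had a larger rise. Between the lines, *Il1b* was higher in iMK2-KO+GFP cells, with a log2 ratio of 1.58 (0.78 to 2.59) without and 5.24 (4.87 to 5.70) with IL-1α. *Il1b* lies on chromosome 2 from 129206490 to 129213059 in the positions of the deposited table, whose build is not named. Its antisense gene *Il1bos* had at most 4 normalized counts in any library.

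*Il18*, the second cytokine substrate (chromosome 9, 50466127 to 50493140), had normalized counts of 65 and 73 in iMK2-KO+GFP cells and of 50 and 65 in iMK2-KO+MK2 cells, UT and after IL-1α. The 4 libraries lay within 1.46-fold of each other. The log2 ratio of the lines was 0.37 (-0.18 to 0.94) in UT cells and 0.17 (-0.33 to 0.67) after IL-1α. The IL-1α response was 0.17 (-0.33 to 0.67) in iMK2-KO+GFP and 0.37 (-0.18 to 0.94) in iMK2-KO+MK2 cells. The difference between the responses was -0.21 (-0.92 to 0.51). None of these values excluded 0 at this depth. The study names *Il18* among the transcripts that its sequencing found increased in iMK2-KO+GFP cells. *Il18* overlaps *Bco2* (114 to 139 normalized counts), and reads in the overlap could go to either gene.

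**Figure D1:**
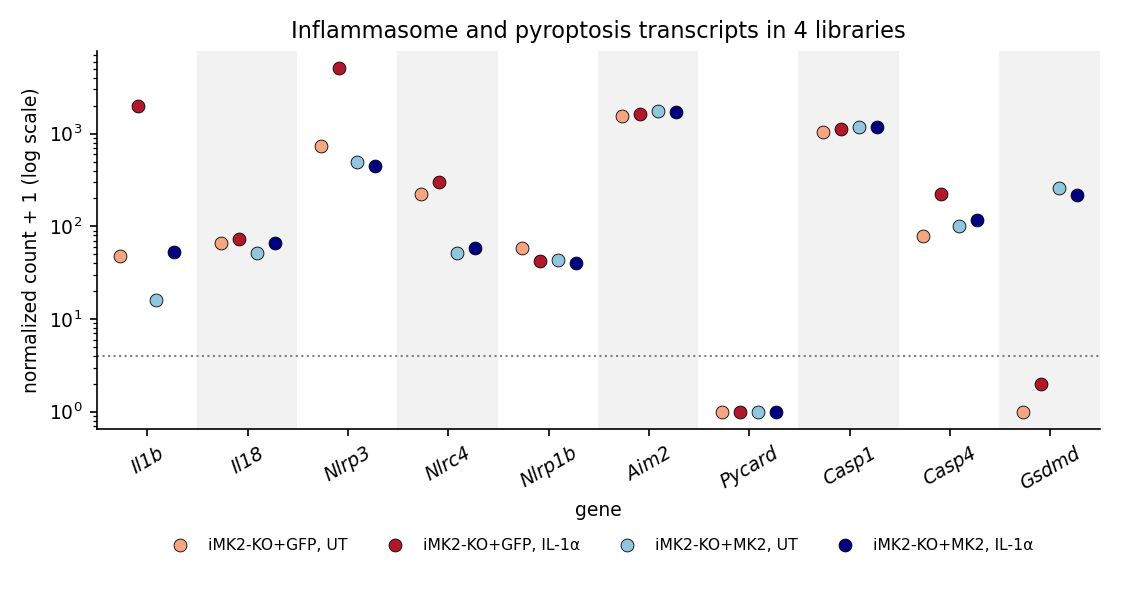
Normalized count plus 1 of the 10 members (log axis) in the 4 libraries, 1 point per library, with a dotted line at the floor of 3 counts. *Il1b* and *Nlrp3* are highest in IL-1α-treated iMK2-KO+GFP cells (2007 and 5124), *Gsdmd* is at 0 and 1 in the iMK2-KO+GFP libraries and at 259 and 216 in the others, and *Pycard* is at 0 in all 4.

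Among the sensors, *Nlrp3*, which responds to potassium efflux and many forms of cell damage (chromosome 11, 59432394 to 59457782), had normalized counts of 737 in UT and 5124 in IL-1α-treated iMK2-KO+GFP cells, against 490 and 445 in iMK2-KO+MK2 cells. Only the IL-1α-treated iMK2-KO+GFP library was high. The rise in that line was 2.80 (2.69 to 2.91) on the log2 scale, or 6.94-fold. In iMK2-KO+MK2 cells the ratio was -0.14 (-0.33 to 0.05), and the responses differed by 2.93 (2.72 to 3.15). In UT cells *Nlrp3* was above its level in iMK2-KO+MK2 cells by 0.59 (0.42 to 0.76), beyond counting error but under 2-fold, and after IL-1α it was higher by 3.52 (3.39 to 3.67), or 11.5-fold.

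*Nlrc4*, which recognizes bacterial flagellin and secretion system proteins together with NAIP receptors (chromosome 17, 74732433 to 74766137), had normalized counts of 223 and 304 in iMK2-KO+GFP cells and of 51 and 58 in iMK2-KO+MK2 cells. Both iMK2-KO+GFP libraries were above both iMK2-KO+MK2 libraries. The log2 ratio of the lines was 2.11 (1.68 to 2.60) before and 2.37 (1.98 to 2.82) after IL-1α, which is 4.31- and 5.17-fold. The IL-1α response was under 2-fold in either line, at 0.45 (0.19 to 0.70) in iMK2-KO+GFP and 0.18 (-0.38 to 0.76) in iMK2-KO+MK2 cells. The pattern of *Nlrc4* thus differed from that of *Nlrp3*: the lines already differed in UT cells and the difference between the responses, 0.26 (-0.33 to 0.86), was within counting error. The 4 genes within 100 kb of *Nlrc4* that reached the minimum mean (*Spast*, *Slc30a6*, *Yipf4* and *Birc6*) had log2 ratios of the lines between -0.12 and 0.23 in UT cells and between -0.02 and 0.23 after IL-1α.

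*Nlrp1b*, a sensor of protease activity such as that of anthrax lethal factor (chromosome 11, 71043928 to 71121559), had low normalized counts of 58 and 41 in iMK2-KO+GFP cells and of 42 and 39 in iMK2-KO+MK2 cells. None of its 4 ratios excluded 0, and the largest of them in size, the IL-1α response in iMK2-KO+GFP cells, was -0.49 (-1.11 to 0.10). It has close paralogs next to it (*Nlrp1a* and *Nlrp1c-ps*), and reads may be split among them.

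*Aim2*, the sensor of cytosolic double-stranded DNA (chromosome 1, 173178445 to 173293606), had normalized counts of 1565 and 1642 in iMK2-KO+GFP cells and of 1779 and 1734 in iMK2-KO+MK2 cells. The 4 libraries lay within 1.14-fold of each other. In UT cells the ratio of the lines was -0.18 (-0.28 to -0.09), and after IL-1α -0.08 (-0.18 to 0.02). The IL-1α responses of 0.07 (-0.03 to 0.17) and -0.04 (-0.13 to 0.06) did not exclude 0.

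*Casp1*, the protease of the canonical inflammasome (chromosome 9, 5298508 to 5307290), had normalized counts of 1030 and 1110 in iMK2-KO+GFP cells and of 1194 and 1178 in iMK2-KO+MK2 cells. Its values followed those of *Aim2* in size and direction, with a ratio of the lines of -0.21 (-0.33 to -0.09) before and -0.09 (-0.21 to 0.03) after IL-1α. The IL-1α responses were 0.11 (-0.02 to 0.23) and -0.02 (-0.14 to 0.10).

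*Casp4*, which encodes caspase-11 (chromosome 9, 5308828 to 5336783), had normalized counts of 77 in UT and 224 in IL-1α-treated iMK2-KO+GFP cells, against 99 and 115 in iMK2-KO+MK2 cells. Like *Nlrp3*, it was highest in the IL-1α-treated iMK2-KO+GFP library. It rose there by 1.53 (1.16 to 1.93), or 2.88-fold. In iMK2-KO+MK2 cells the response was 0.21 (-0.18 to 0.62), and the responses differed by 1.31 (0.78 to 1.85). The ratio of the lines was -0.36 (-0.81 to 0.08) in UT cells and 0.96 (0.63 to 1.30) after IL-1α, just under the 2-fold limit. *Casp1* and *Casp4* are neighbours, 1.54 kb apart, and *Casp1* did not reach the 2-fold limit in either line.

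**Figure D2:**
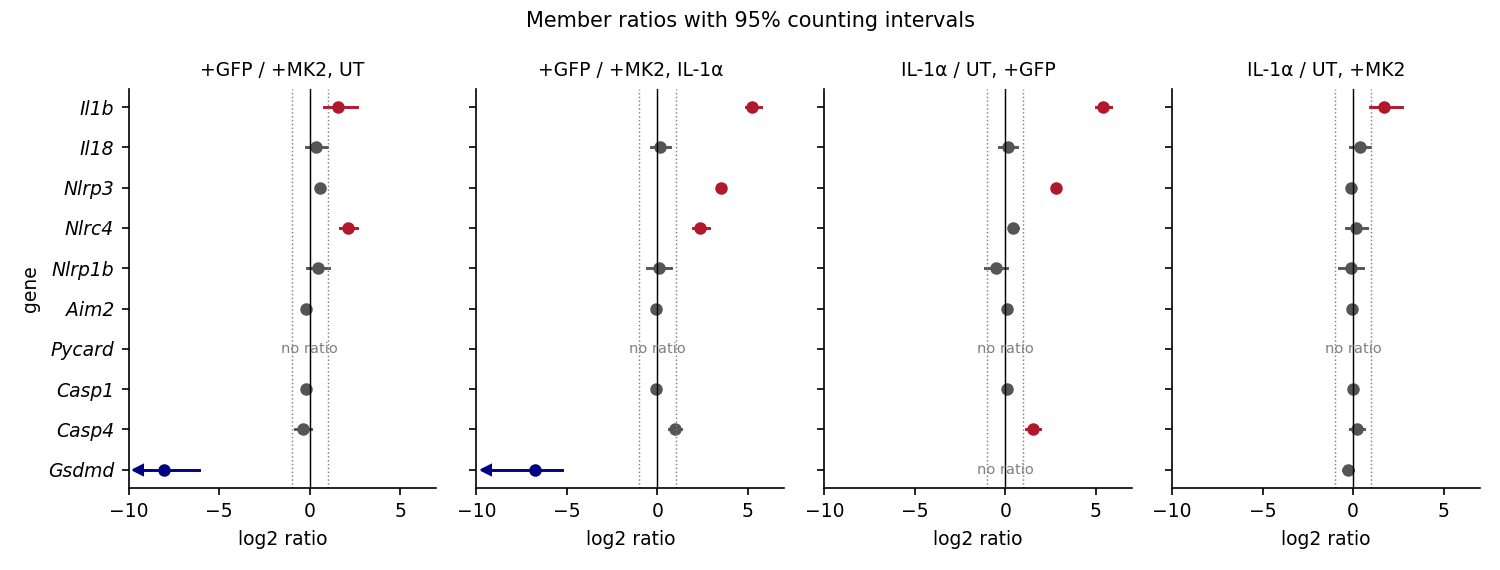
Log2 ratios of the 10 members in 4 comparisons (points) with 95% counting intervals (bars); dotted lines mark 2-fold, colours mark genes at or past it (red higher, blue lower), arrows mark intervals that run past the axis, and no ratio is given where both libraries had at most 3 counts. *Il1b* and *Nlrp3* are far to the right after IL-1α in iMK2-KO+GFP cells (5.39 and 2.80), while in iMK2-KO+MK2 cells only *Il1b* passes 2-fold (1.73); the points of *Gsdmd* between the lines depend on the added 1.

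*Gsdmd*, the substrate whose pore carries out pyroptosis (chromosome 15, 75734176 to 75739257), showed the opposite pattern to *Nlrc4*. Its normalized counts were 0 in UT and 1 in IL-1α-treated iMK2-KO+GFP cells, and 259 and 216 in iMK2-KO+MK2 cells. Both iMK2-KO+GFP libraries were below the floor of 3 counts that a count of 0 allows. With this floor, taken per library, *Gsdmd* was at least 86.3-fold lower in UT iMK2-KO+GFP cells, leaving out counting error of the iMK2-KO+MK2 value. The 95% counting interval of the log2 ratio, which allows slightly more than 3 counts, ended at -6.12, a smaller difference. After IL-1α the single count gave a 216-fold lower level without the added 1 (counting interval 38.4 to 8571), and a 108.5-fold lower level with it. Since the UT fold is a bound and the fold after IL-1α a ratio, they do not show a larger difference after IL-1α. In iMK2-KO+MK2 cells the IL-1α response was -0.26 (-0.53 to 0.00). *Gsdmd* was 1 of 33 genes with at most 3 normalized counts in both iMK2-KO+GFP libraries and at least 100 in both iMK2-KO+MK2 libraries, and 4 genes showed the reverse. The 7 genes within 100 kb of *Gsdmd* that reached the minimum mean did not share its pattern, with log2 ratios of the lines between -0.34 (*Tigd5*) and 0.21 (*Naprt*) in UT cells and between -0.54 (*Tigd5*) and 0.21 (*Gfus*) after IL-1α. The nearest of them, *Zc3h3* at 20.4 kb, had 384 and 364 normalized counts in iMK2-KO+GFP cells and 419 and 478 in iMK2-KO+MK2 cells. The neighbours were chosen after the values of *Gsdmd* were seen. Among 3 dendritic cell markers, *Zbtb46* also differed between the lines, at 23 and 18 against 104 and 115 normalized counts, so that the summed level of the list was 21 to 23 in iMK2-KO+GFP and 106 to 116 in iMK2-KO+MK2 cells, with *Flt3* at 0 and *Xcr1* at no more than 3 in all libraries. Its part in the *Gsdmd* difference was not tested.

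*Pycard*, which encodes the adaptor ASC (chromosome 7, 127588880 to 127593039), was listed at 0 in all 4 libraries, which allows up to 3 counts in each. This is the level of the deposited table, in which 33730 genes are at 0 in all libraries, and no ratio was formed. *Gm45205*, which overlaps *Pycard*, had 1 to 3 normalized counts. The depth thus allows no statement on a difference in *Pycard* between lines or treatments.

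**Figure D3:**
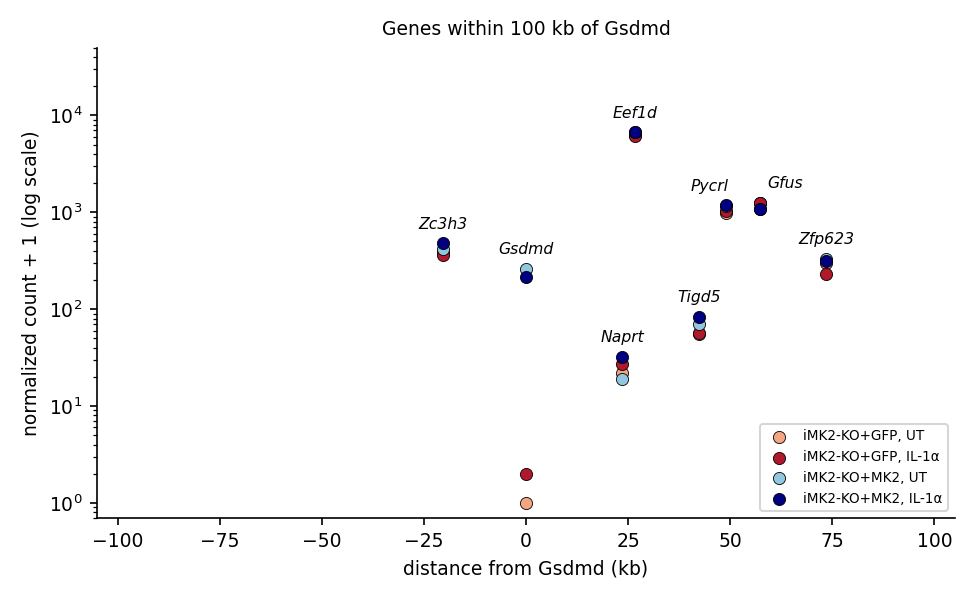
Normalized count plus 1 (log axis) of *Gsdmd* and the genes within 100 kb of it with a mean of at least 10, against the distance in kb between the nearest gene ends, 1 point per library, with *Gsdmd* at 0 kb. The libraries split by line at *Gsdmd* (0 and 1 against 259 and 216), while *Zc3h3* next to it has 364 to 478 in all 4.

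Counted over the 9 members that reached the minimum mean, 2 were higher in UT iMK2-KO+GFP than in UT iMK2-KO+MK2 cells (*Il1b* and *Nlrc4*). Lower was 1, *Gsdmd*, which reached this mean only through iMK2-KO+MK2 cells. The background was 3.5 and 5.26% of all genes tested. After IL-1α 3 were higher (*Il1b*, *Nlrp3* and *Nlrc4*) and 1 lower (*Gsdmd*), with backgrounds of 4.15 and 5.56%. IL-1α raised 3 members in iMK2-KO+GFP cells (*Il1b*, *Nlrp3* and *Casp4*; background 2.13%) and 1 in iMK2-KO+MK2 cells (*Il1b*; background 0.865%), and lowered none by 2-fold (backgrounds 1.5 and 1%). The response was at least 2-fold larger in iMK2-KO+GFP cells for the same 3 members (background 2.94%) and smaller for none (background 2.34%). The median log2 ratio of the members with a ratio was 0.37 between UT lines, against 0.02 over all genes, and 0.17 against 0.03 after IL-1α. It was 0.31 against 0.02 for IL-1α in iMK2-KO+GFP cells and -0.02 against 0.01 in iMK2-KO+MK2 cells. These comparisons share libraries with each other and are not independent.

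Counting error alone set a lower bar. Between UT lines 3 members were above and 3 below beyond counting error (backgrounds 30.8 and 26.9%), and after IL-1α 4 and 1 were (33.7 and 26.3%). With IL-1α, 4 members exceeded their UT level beyond counting error in iMK2-KO+GFP cells (background 20%) and 1 did in iMK2-KO+MK2 cells (background 11.4%), with none below in either line (backgrounds 12.3 and 8.23%). Shares of this size over all genes mean that a ratio beyond counting error was common between any of these libraries.

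**Figure D4:**
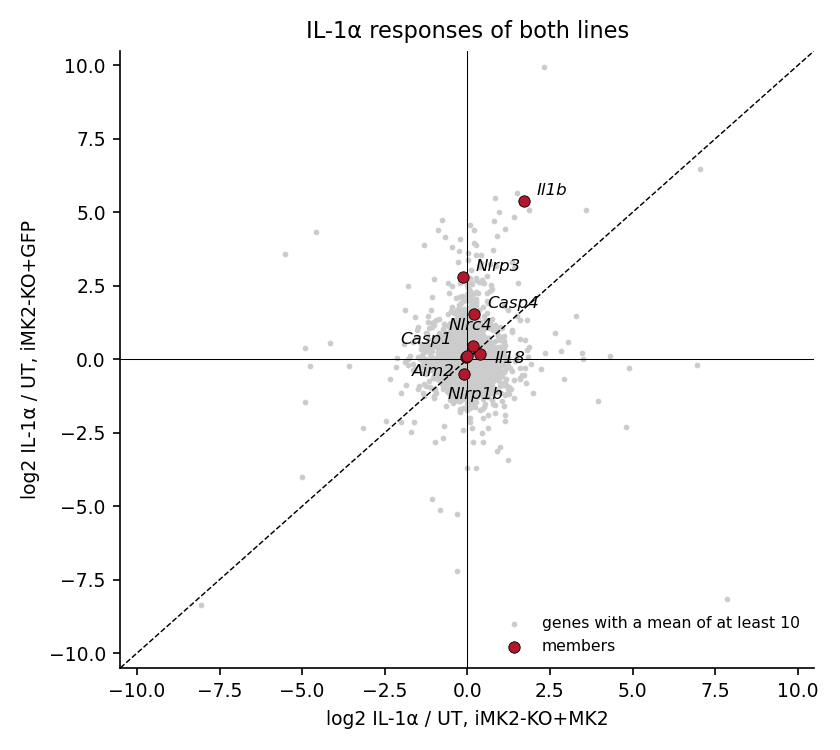
Log2 ratio of IL-1α to UT in iMK2-KO+GFP cells (vertical axis) against that in iMK2-KO+MK2 cells (horizontal axis), for the background genes (grey) and the members with both ratios (red); the dashed line marks equal responses. *Il1b* (5.39 against 1.73), *Nlrp3* (2.80 against -0.14) and *Casp4* (1.53 against 0.21) lie above the line, and the other members lie near the origin.

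Per kilobase of the longest principal transcript in GENCODE M21, *Casp1* was the most abundant member in UT iMK2-KO+GFP cells (688 normalized counts per kb), followed by *Aim2* (551) and *Nlrp3* (183). *Il1b* was in place 7 of the members there, with 34.7 per kb. In the IL-1α-treated iMK2-KO+GFP library *Il1b* led the order with 1480 per kb, ahead of *Nlrp3* (1274), *Casp1* (741) and *Aim2* (578). In iMK2-KO+MK2 cells the order began with *Casp1* (798 and 787), *Aim2* (627 and 611) and *Gsdmd* (145 and 121) in both states, and *Il1b* stayed in place 7 with 11.1 and 38.3 per kb.

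The genes whose pattern over the 4 libraries was most like that of *Il1b*, by the root mean square difference of log2 levels after centring each gene on its own mean, were *Pde4b* (0.12), *Saa3* (0.35), *Traf1* (0.40), *Acod1* (0.64) and *Nfkbiz* (0.66). The phosphodiesterase gene *Pde4b* had normalized counts of 70, 2404, 20 and 75 in UT and IL-1α-treated iMK2-KO+GFP and UT and IL-1α-treated iMK2-KO+MK2 cells. Those of *Nfkbiz*, which encodes the nuclear protein IκBζ, were 190, 9664, 183 and 526, so that its UT levels did not separate the lines as those of *Il1b* did. For *Nlrp3* the most similar genes were the kinase gene *Pim1* (0.18), *H2-K2* (0.22), *Arl5c* (0.25), *Spata13* (0.26) and *Nod2* (0.29), a sensor of bacterial cell wall fragments with normalized counts of 111, 732, 78 and 106. The measure was taken over genes whose mean was 50 or more and rests on 4 libraries.

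Among 43 other genes of the pathway, 29 reached the minimum mean. Of these, 2 were at least 2-fold higher and 2 lower in UT iMK2-KO+GFP cells, and 5 were higher and 1 lower after IL-1α, beside the same backgrounds of 3.5 and 5.26% and of 4.15 and 5.56%. *Trim30a*, counted as lower in both states, reached the minimum mean only through iMK2-KO+MK2 cells. IL-1α raised 2 of the 29 in iMK2-KO+GFP cells (background 2.13%) and none in iMK2-KO+MK2 cells (background 0.865%). It lowered none in either line (backgrounds 1.5 and 1%). The median ratio of the list was -0.02 between UT lines, 0.11 after IL-1α, 0.02 for IL-1α in iMK2-KO+GFP and 0.00 in iMK2-KO+MK2 cells, near that of all genes.

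The genes that IL-1α raised were *Irf1* and *Il1a*. *Irf1*, a transcription factor that induces guanylate-binding proteins, had normalized counts of 324 in UT and 1885 in IL-1α-treated iMK2-KO+GFP cells, against 343 and 338 in iMK2-KO+MK2 cells. Its response was 2.54 (2.37 to 2.72) in the first line and -0.02 (-0.24 to 0.20) in the second, a difference of 2.56 (2.28 to 2.83). *Il1a*, which encodes the cytokine used as the stimulus and lies 54.6 kb from *Il1b*, had normalized counts of 13 and 136 in iMK2-KO+GFP cells and of 41 and 55 in iMK2-KO+MK2 cells. In UT cells the order of the lines was thus the opposite of that of *Il1b*, with a log2 ratio of -1.58 (-2.68 to -0.73), and after IL-1α it was the same, with 1.29 (0.84 to 1.79). The responses of *Il1a* were 3.29 (2.56 to 4.33) and 0.42 (-0.19 to 1.04), a difference of 2.88 (1.89 to 3.86).

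The other genes past 2-fold differed between the lines in both states or, for *Naip1*, after IL-1α. *P2rx7*, the ATP-gated channel upstream of NLRP3, had 1870 and 1885 normalized counts in iMK2-KO+GFP cells against 840 and 923 in iMK2-KO+MK2 cells, log2 ratios of 1.15 (1.04 to 1.27) and 1.03 (0.92 to 1.15), the second of which was under 2-fold in each of the scalings tried. *Serpinb1a*, an inhibitor of neutrophil serine proteases and of inflammatory caspases, was higher as well, with 829 and 952 against 307 and 363 (1.43 and 1.39). *Trim30a*, a negative regulator of NLRP3 activation, was lower, with 6 and 6 against 80 and 64 (-3.53 and -3.22). *Naip1*, a partner of NLRC4 from a family of close paralogs among which reads may be split, had 30 and 33 against 18 and 10, a ratio of 1.63 (0.67 to 2.91) after IL-1α.

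Several partners of the members differed by less than 2-fold between the lines. *Nek7*, a kinase required for NLRP3 assembly, had 2166 to 2272 normalized counts, and *Txnip*, a binding partner of NLRP3, had 3790 to 4085. *Ninj1*, which drives plasma membrane rupture after pore formation, had 1953 and 2343 in iMK2-KO+GFP and 2331 and 2254 in iMK2-KO+MK2 cells. Its UT ratio of the lines, -0.26 (-0.34 to -0.17), was beyond counting error. Of the 29 other genes, 7 were above and 7 below beyond counting error between UT lines (backgrounds 30.8 and 26.9%). After IL-1α 10 and 8 were (backgrounds 33.7 and 26.3%). Of the other sensors, 6 of 9 reached the minimum mean, of the licensing and ion channel partners 6 of 6, of the inhibitors 5 of 5, of the other caspases, gasdermins and rupture genes 4 of 8, of the necroptosis genes 2 of 4, of the interferon-inducible genes 4 of 5, and of the other IL-1 family cytokines and IL-18 receptors 2 of 6. Listed at 0 in all 4 libraries were *Nlrp6*, *Nlrp12*, *Casp12*, *Gsdma*, *Gsdmc*, *Il33* and *Il36a*. *Gsdme*, another pore-forming gasdermin, was low in all libraries, with 23 to 37 normalized counts.

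**Figure D5:**
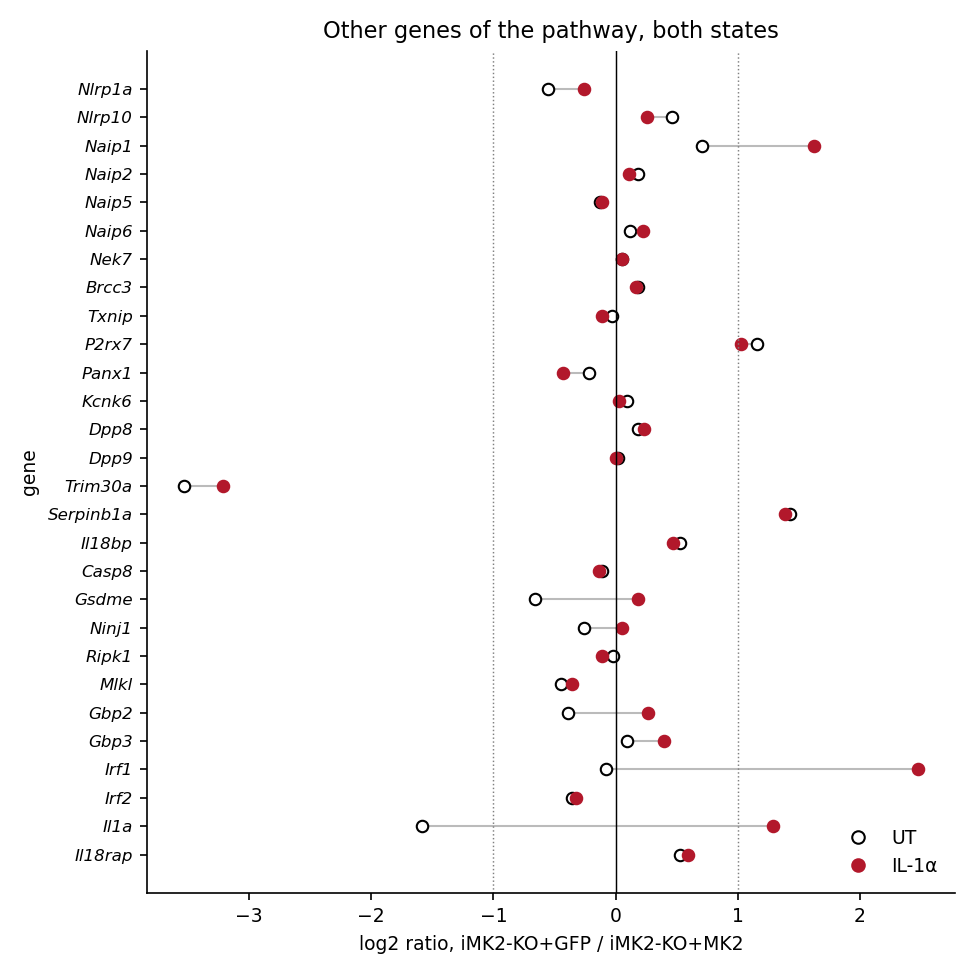
Log2 ratio of iMK2-KO+GFP to iMK2-KO+MK2 cells for other pathway genes with a mean of at least 10, UT (open) and after IL-1α (red), with dotted lines at 2-fold. Most lie between the lines in both states, *P2rx7* and *Serpinb1a* lie to the right and *Trim30a* to the left in both, and *Irf1* (-0.08 to 2.48) and *Il1a* (-1.58 to 1.29) move from one state to the other.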

How the data were processed

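RNA was sequenced from 4 libraries, 1 per condition. Per the labels, polyadenylated RNA was selected and directional libraries were run on a NextSeq 550 with paired reads, whereas the study's methods name ribo-depletion and single reads. The authors deposited 1 table with 1 score per gene and library, which the study calls normalized counts, all of them whole numbers. The headers refer to salmon, and the submitters' processing notes name DESeq2 and GRCm38, with no versions. Of 52080 gene IDs shared with GENCODE M21 (GRCm38), only 1494 had the same position, so the build of the deposited positions is not named here and they were not joined to RefSeq windows. The read number behind each score is unknown.

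Scores were used as deposited, with no further normalization and no count model. The log2 ratio of 2 libraries was computed after adding a pseudocount of 1, with a 95% interval from the exact Clopper-Pearson method, applied to the share of the first value in the sum. No ratio was formed where both libraries had at most 3 counts. The interval of the difference between responses is a normal approximation. The minimum was a mean of 10 and the call a 2-fold difference. Scripts were tested on simulated data with counting error only, which does not show how well the intervals fit these data. Python 3.11.15, pandas 2.3.3, numpy 2.4.6, scipy 1.17.1 and matplotlib 3.10.9 were used. Named beside the members were other pathway genes past 2-fold in any comparison or at 0 in all libraries (some items are not reported here), and the 5 genes most like *Il1b* and *Nlrp3*. *Nek7*, *Txnip*, *Ninj1* and *Gsdme* and the neighbouring genes were named after their values were seen. Alternatives were pseudocounts of 0.5 and 5, no minimum or a mean of 50, scaling to totals, to *Gapdh* or to the median, a 1.5-fold call, and 0.8 reads per count or its inverse. The members, lists and motifs were chosen with earlier results of these data known.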

Additional observations from a re-analysis of the deposited data

Results flagged for a closer look

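Of the 36 members and other pathway genes that reached the minimum mean and had a ratio in both lines, 15 had IL-1α ratios of opposite sign in iMK2-KO+GFP and iMK2-KO+MK2 cells. With 1 library per condition none of these differences was tested, and the counting interval of the difference excluded 0 for 3 of them. These were *Nlrp3*, with a difference of 2.93 on the log2 scale (2.80 and -0.14), *Irf1*, with 2.56 (2.54 and -0.02), and *Ninj1*, with 0.31 (0.26 and -0.05; interval 0.19 to 0.43). In 10 of the 15 the ratio was above 0 in iMK2-KO+GFP cells. Besides the 3 named, these were *Naip1* with a difference of 0.92, *Gsdme* with 0.85, *Gbp2* with 0.65, *Casp1* with 0.13, *Aim2* with 0.11, *Mlkl* with 0.088 and *Il18rap* with 0.069. In the other 5 it was below 0 in that line, with differences of -0.21 for *Panx1*, -0.20 for *Nlrp10*, -0.079 for *Naip2*, -0.078 for *Txnip* and -0.024 for *Casp8*. The shares of background genes with opposite signs were not computed, and most of the 15 differences lay within counting error. The counts are therefore no result about the pathway.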

How the results depend on the processing

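No ratio past 2-fold of a member, or of *Naip1*, *P2rx7*, *Trim30a*, *Serpinb1a*, *Irf1* or *Il1a*, changed sign under the pseudocounts and scalings tried, and of these ratios 1 left the 2-fold side, that of *P2rx7* between the lines after IL-1α (1.03), which was 0.99 scaled to totals, 0.93 scaled to *Gapdh* and 0.99 centred on the median. 2 ratios near 0 changed sign, *P2rx7* for IL-1α in iMK2-KO+GFP cells (0.01; -0.03, -0.03 and -0.01 under the same scalings) and *Nlrp1b* between the lines after IL-1α (0.07; -0.03 scaled to *Gapdh*). Among counts over members and over other pathway genes, 207 values stayed within 1.5 times the reported one and 5 did not. With a minimum mean of 50, other pathway genes at least 2-fold lower in iMK2-KO+GFP cells went from 2 to 1 (UT) and from 1 to 0 (IL-1α), since *Trim30a* no longer entered. With a 1.5-fold call, 1 such gene instead of 0 was lower after IL-1α in iMK2-KO+MK2 cells. In that comparison, 1 instead of 2 other genes was higher beyond counting error at 0.8 reads per count, and 1 instead of 0 members was lower at the inverse of 0.8. With a pseudocount of 5, *Gsdmd* moved to -5.72 (UT) and -5.20 (IL-1α), and scaled to *Gapdh*, *Aim2* moved to -0.18 after IL-1α. Over all genes, a pseudocount of 5 took the counts past 2-fold for IL-1α to 107 lower in iMK2-KO+GFP cells and to 60 higher and 70 lower in iMK2-KO+MK2 cells. They also depend on the minimum: between UT lines 437 higher and 657 lower became 930 and 1284 with none and 242 and 341 with a mean of 50. For IL-1α in iMK2-KO+GFP cells 266 and 187 became 682 and 600, or 139 and 35. In iMK2-KO+MK2 cells 108 and 125 became 499 and 590, or 25 and 16. With 1 library per condition, no library could be left out. No paired analysis was possible because each condition has a single library and no result comes from a test.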
